A study of Homo sapiens with 29 samples.

Results

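The E2F transcription factors, FOXM1 and MYBL2 form the core of the program that switches cell-cycle genes on and off, and the 10 genes E2F1 to E2F8, FOXM1 and MYBL2 were followed here through the differentiation of human myoblasts with and without the zinc finger protein ZNF148. The members were chosen by name, by matching the RefSeq accession of each array probe to its gene symbol. All 10 members were found, with 14 probes, among the 22439 genes that could be named on the array. Each of the 14 probes was well above background on at least 2 arrays, so that all 10 members were tested.

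Gene expression was measured in LHCN-M2 cells, a human myoblast line immortalized with telomerase and CDK4, so that every group carries an added CDK4 gene. Cells received 20 nM nontargeting siRNA (siControl) or 20 nM siRNA against ZNF148 (siZNF148). Cultures were collected at 24 h while subconfluent in growth media, at 48 h and 96 h while confluent in growth media, and at 48 h and 96 h in differentiation media. Each of the 10 groups had 3 arrays, labelled as biological replicates, except siControl at 96 h in growth media, which had 2, giving 29 one-colour arrays. The hours in differentiation media may be counted from the change of media rather than from transfection, so that the 48 h cultures in the 2 media need not be the same time after transfection. All 24 h arrays shared a slide and a scan day that no later array shared, so that levels at 24 h and at later times cannot be told apart from slide and scan.

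E2F proteins bind DNA mostly as dimers with a DP partner (TFDP1 or TFDP2) and are held in check by the pocket proteins RB1, RBL1 and RBL2. E2F1, E2F2 and E2F3 are known as activators of the genes that cells need to enter S phase, E2F4 and E2F5 act mainly as repressors together with pocket proteins, E2F6 represses without a pocket protein as part of a Polycomb-type complex, and E2F7 and E2F8 are atypical repressors that bind DNA without a DP partner and lower the transcription of E2F target genes, E2F1 among them. MYBL2 (B-MYB) joins the MuvB core proteins to switch on genes of the G2 and M phases, and FOXM1 then takes over at many of the same genes. Myoblasts leave the cell cycle before they fuse into muscle fibres, and E2F activity is known to fall as they do.

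E2F proteins are known to act on promoters of their own family, and the promoters of 4 members that changed more than 2-fold are shown to set those with an E2F word beside those without. RefSeq promoters (GRCh38.p14, the 250 bases before the start) were found for 7 of the 10 members: E2F1, E2F2, E2F3, E2F4, E2F6, E2F7 and MYBL2. E2F5, E2F8 and FOXM1 had no entry. The capitals mark an E2F word, taken as any of TTTCCCGC, TTTGGCGC, TTTCGCGC and TTTGCCGC on either strand.
E2F1, chr20:33686386-33686635, minus strand: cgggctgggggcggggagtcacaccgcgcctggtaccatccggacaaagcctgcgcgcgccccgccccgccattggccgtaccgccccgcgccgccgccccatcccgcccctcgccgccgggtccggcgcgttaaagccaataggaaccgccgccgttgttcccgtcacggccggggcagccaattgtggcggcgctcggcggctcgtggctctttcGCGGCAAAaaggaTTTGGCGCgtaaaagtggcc
E2F2, chr1:23531234-23531483, minus strand: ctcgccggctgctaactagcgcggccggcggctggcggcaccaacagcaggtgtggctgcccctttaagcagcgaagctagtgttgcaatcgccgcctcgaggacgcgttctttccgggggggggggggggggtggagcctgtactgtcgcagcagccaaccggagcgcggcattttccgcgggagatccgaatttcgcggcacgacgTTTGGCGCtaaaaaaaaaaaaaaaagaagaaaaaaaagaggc
E2F7, chr12:77065570-77065819, minus strand: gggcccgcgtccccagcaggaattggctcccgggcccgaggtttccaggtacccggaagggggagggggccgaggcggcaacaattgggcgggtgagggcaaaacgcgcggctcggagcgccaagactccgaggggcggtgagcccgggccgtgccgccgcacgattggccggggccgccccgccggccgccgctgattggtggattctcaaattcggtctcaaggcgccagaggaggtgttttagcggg
MYBL2, chr20:43666864-43667113, plus strand: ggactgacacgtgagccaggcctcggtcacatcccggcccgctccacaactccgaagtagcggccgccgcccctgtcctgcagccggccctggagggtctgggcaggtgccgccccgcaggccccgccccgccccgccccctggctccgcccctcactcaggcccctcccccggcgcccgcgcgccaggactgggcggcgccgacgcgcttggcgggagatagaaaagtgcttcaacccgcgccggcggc
The E2F1 promoter held 2 E2F words, at -33 and -20 from the start, and the E2F2 promoter held 1, at -42. Those of E2F7 and MYBL2 held none of the words searched. Other forms of E2F site were not searched, so that a promoter without these words may still hold one. Of 35116 promoters, 2.79% held at least 1 such word, and of the 8 member promoters (E2F3 has 2) 3 did, the last being a promoter of E2F3 with a word at -53. The words searched do not overlap each other. The CCAAT box, read on both strands, stood in 3 of the 8 member promoters and in 32% of all promoters. It occurred 3 times in E2F1 and 4 times in E2F7, and a promoter of E2F3 held it as well. The word TTTGAA, part of the CHR element through which MuvB complexes bind, was found in 1 member promoter, that of E2F3, and in 13.3% of all promoters. The forkhead word TAAACA was in none of the member promoters and in 11% of all, and the G-rich word GGGGAGGG was in those of E2F7 and MYBL2 and in 12.7% of all. These are matches of letters and were not tested for binding.

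Levels are given as log2 signals from the normalized values that the authors deposited, in which all arrays were given the same distribution, and differences are differences of log2 means, so that 1 is 2-fold. All tests came from 1 limma fit of 38839 probes with a mean for each group, and p-values were adjusted by Benjamini-Hochberg over all of them. A gene is said to rise or fall where its adjusted p was under 0.05, and counts are of genes that also passed 2-fold unless stated otherwise. Of each array's probes, 41.6% to 56.5% were well above background. ZNF148, the siRNA target, fell in every comparison, with log2 differences of -1.53 (24 h), -2.08 (48 h) and -2.30 (96 h) in growth media and of -2.34 (48 h) and -2.74 (96 h) in differentiation media. All 5 myoblast markers (DES, MYOD1, MYF5, NCAM1 and CDH15) were above background on all 29 arrays. Of 8 tested markers of other cell types, 5 to 8 were well above background on an array. Among them the fibroblast markers THY1 and DCN fell with siZNF148 at 48 and 96 h in both media. Of the other listed fibroblast markers, PDGFRA rose by 0.31 and LUM differed by -0.05 at 48 h in growth media. The effect on LUM was lower in differentiation than in growth media at 48 h (difference of effects -1.36, adjusted p = 4.84e-07). Of the 8 markers, 2 and 3 fell more than 2-fold at 48 and 96 h in growth media and 4 and 3 in differentiation media, and none rose more than 2-fold. One array stood apart. In siControl replicate 1 at 48 h in growth media the median log2 signal of 5 differentiated muscle markers (MYOG, CKM, ACTA1, MYH3 and TNNT3) was 16.03, against 7.46 and 7.0 in the other two siControl arrays, and the main counts that use it are also given without it. Over the shorter gene lists, all 22 genes past 2-fold with siZNF148 at 48 h in growth media kept their call and sign without it, and no correlation between members moved by more than 0.0193. In bulk RNA, fewer cells of a type and less RNA per cell cannot be told apart.

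**Figure D1:**
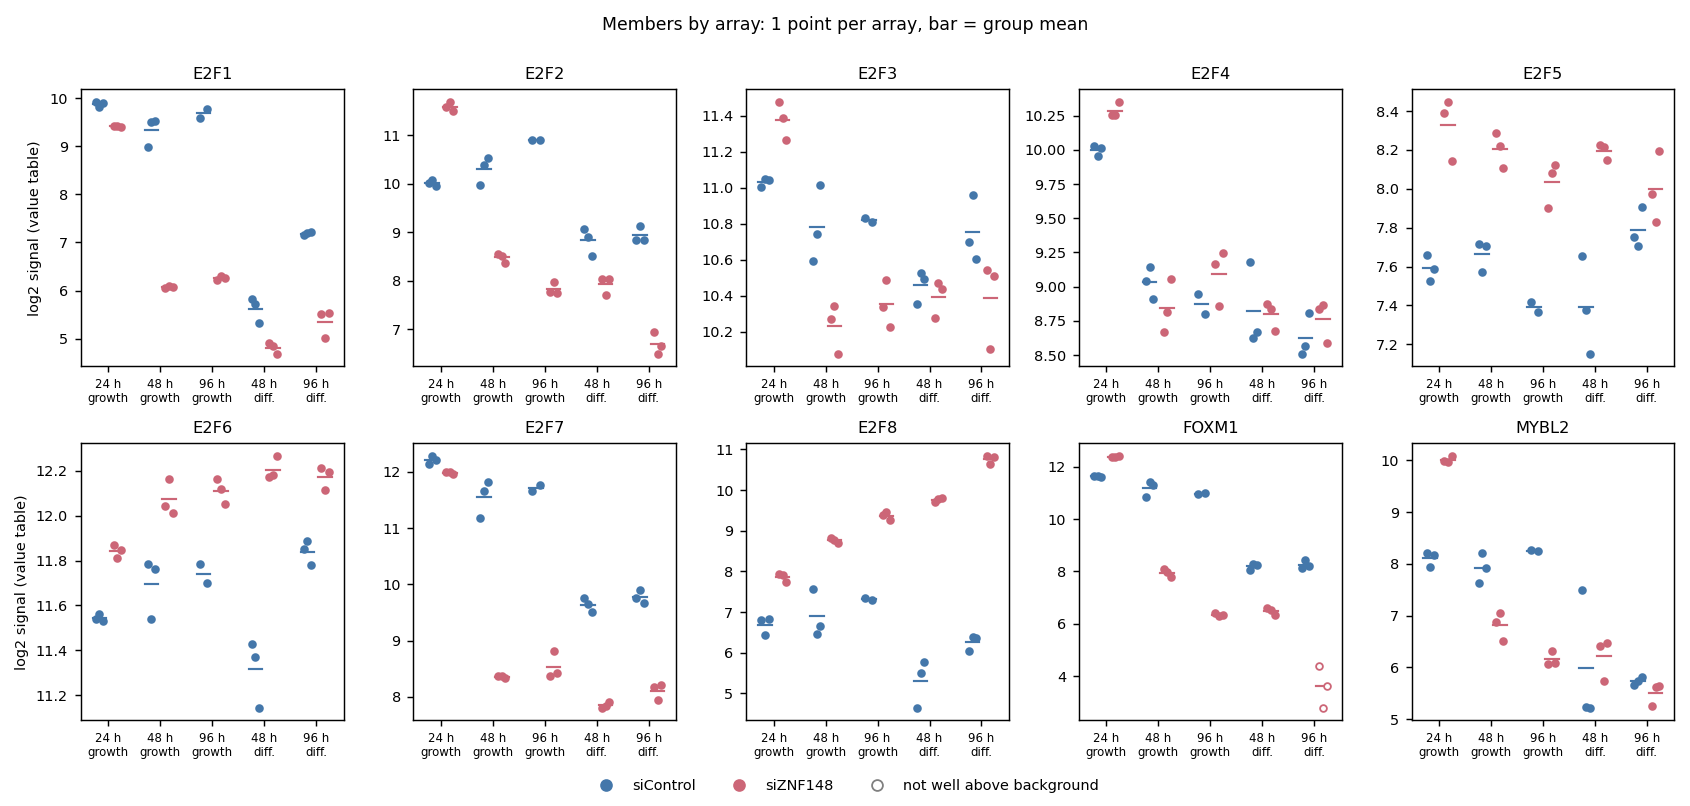
Log2 signal (y axis) of the 10 members on each of the 29 arrays, by time and media (x axis; diff., differentiation media), for siControl (blue) and siZNF148 (red), with a bar at each group mean and open points where the probe was not well above background. E2F1, E2F2, E2F7 and FOXM1 lie lower with siZNF148 at 48 and 96 h in both media, while E2F8 lies higher with siZNF148 in all 5 conditions.

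At 24 h, in subconfluent cells, the knockdown raised the activators E2F2 and MYBL2. In all, 3 members rose more than 2-fold (E2F2, MYBL2 and E2F8) and none fell more than 2-fold, where 2.44% of all genes rose and 3.03% fell. At any size of change 7 of 10 members rose (15.4% of all genes) and 1 fell (16.7% of all genes). E2F2, an activator, was at 10.02, 10.08 and 9.95 with siControl and at 11.58, 11.69 and 11.49 with siZNF148. MYBL2 was at 8.21, 7.94 and 8.17 with siControl and at 9.99, 9.97 and 10.09 with siZNF148. For both genes all siZNF148 arrays lay above all siControl arrays, by 1.57 ± 0.151 (log2 difference ± SE, adjusted p = 1.03e-07) for E2F2 and by 1.91 ± 0.377 (adjusted p = 0.000616) for MYBL2. FOXM1 rose by 0.75 (adjusted p = 0.0232) and E2F3, E2F5 and E2F6 by 0.34, 0.74 and 0.30. E2F1 was the exception among the activators and fell by 0.47 (adjusted p = 0.0163), from 9.92, 9.82 and 9.90 to 9.41 on each of the 3 siZNF148 arrays. E2F4 differed by 0.29 (adjusted p = 0.143) and E2F7 by -0.22 (adjusted p = 0.258).

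At 48 h in growth media the order had turned. There, 5 members fell more than 2-fold (E2F1, E2F2, E2F7, FOXM1 and MYBL2) and E2F8 alone rose more than 2-fold, where 12.2% of all genes fell and 11.7% rose. E2F1 was at 8.99, 9.50 and 9.51 with siControl and at 6.05, 6.09 and 6.08 with siZNF148. FOXM1 was at 10.83, 11.40 and 11.30 with siControl and at 8.07, 7.96 and 7.78 with siZNF148. In both genes the groups lay far apart and replicate 1 was the lowest of the siControl arrays. E2F1 fell by 3.26 ± 0.139 (adjusted p = 9.7e-14), or 9.59-fold, and FOXM1 fell by 3.24 ± 0.234 (adjusted p = 3.1e-10), or 9.43-fold. E2F7 fell by 3.20 and E2F2 fell by 1.81. MYBL2 fell by 1.10 (adjusted p = 0.0202), and E2F3 fell by 0.55. E2F8 went the other way, from 7.58, 6.46 and 6.65 to 8.82, 8.78 and 8.70, a rise of 1.87 ± 0.237 (adjusted p = 9.62e-07). Its highest siControl value was that of replicate 1, the array with high muscle markers. Without that array the same 6 members passed the threshold, the rise of E2F8 was 2.21, and the differences for E2F1, FOXM1 and MYBL2 were -3.43, -3.41 and -1.24. Leaving out siControl replicate 2 or siZNF148 replicate 3 ended the call for MYBL2, with differences of -0.96 (adjusted p = 0.0804) and -0.95 (adjusted p = 0.0798).

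At 96 h in growth media the falls of FOXM1, E2F2 and MYBL2 had larger values. Again 5 members fell (12.4% of all genes) and E2F8 rose (12.3% of all genes). FOXM1 was at 10.96 and 10.98 with siControl and at 6.39, 6.30 and 6.33 with siZNF148, and fell by 4.63 ± 0.262 (adjusted p = 7.44e-12) or 24.8-fold. E2F2 was at 10.89 and 10.91 with siControl and at 7.76, 7.98 and 7.76 with siZNF148, and fell by 3.07 (adjusted p = 4.61e-12). The 2 siControl arrays lay close together and above every siZNF148 array in both genes. E2F1 fell by 3.42, E2F7 fell by 3.18, MYBL2 fell by 2.11 and E2F3 fell by 0.47. E2F8 rose from 7.34 and 7.31 to 9.38, 9.45 and 9.27, by 2.04 ± 0.265 (adjusted p = 1.44e-06). The repressors E2F5 and E2F6 rose by 0.65 and 0.37.

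In siControl cells most of these genes were lower in differentiation than in growth media. The knockdown lowered fewer of them past 2-fold in differentiation media, and a link between these observations was not tested. At 48 h, E2F7 and FOXM1 fell more than 2-fold (17.2% of all genes fell) and E2F8 rose (15% of all genes rose). E2F8 was at 4.65, 5.50 and 5.78 with siControl and at 9.70, 9.79 and 9.81 with siZNF148. Every siZNF148 array was far above every siControl array, and the rise was 4.46 ± 0.237 (adjusted p = 7.12e-13), or 21.9-fold. E2F7, the other atypical repressor, was at 9.76, 9.66 and 9.50 with siControl and at 7.81, 7.85 and 7.92 with siZNF148, and fell by 1.78 ± 0.129 (adjusted p = 1.05e-10). FOXM1 fell by 1.70, E2F1 fell by 0.81 and E2F2 fell by 0.91. E2F6 rose by 0.89 with its brightest probe and by 1.12 and 1.04 with its other probes, so that the 2-fold threshold was passed by those probes only. E2F5 rose by 0.80. MYBL2 was at 7.49, 5.22 and 5.22 with siControl and at 6.42, 5.74 and 6.47 with siZNF148, where the groups overlap and siControl replicate 1 lay far above its other two replicates (difference 0.23, adjusted p = 0.674).

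At 96 h in differentiation media 4 members fell more than 2-fold (12.8% of all genes) and E2F8 rose (10.4% of all genes). FOXM1 was at 8.14, 8.44 and 8.21 with siControl and at 4.39, 2.80 and 3.63 with siZNF148, where none of the 3 values was well above background. FOXM1 was therefore at least 13.1-fold lower (adjusted p = 7.8e-13, fitted difference -4.66), a bound for which each siZNF148 value was replaced by the dimmest signal still called present on the same array. E2F8 was at 6.03, 6.40 and 6.36 with siControl and at 10.84, 10.65 and 10.82 with siZNF148, without overlap, and its rise of 4.51 ± 0.237 (adjusted p = 1.54e-12) was 22.8-fold. E2F2 fell by 2.24, E2F1 fell by 1.83 and E2F7 fell by 1.67. MYBL2 was low in both groups, between 5.26 and 5.81 (difference -0.23, adjusted p = 0.674). E2F6 rose by 0.33 and E2F3 fell by 0.37.

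**Figure D2:**
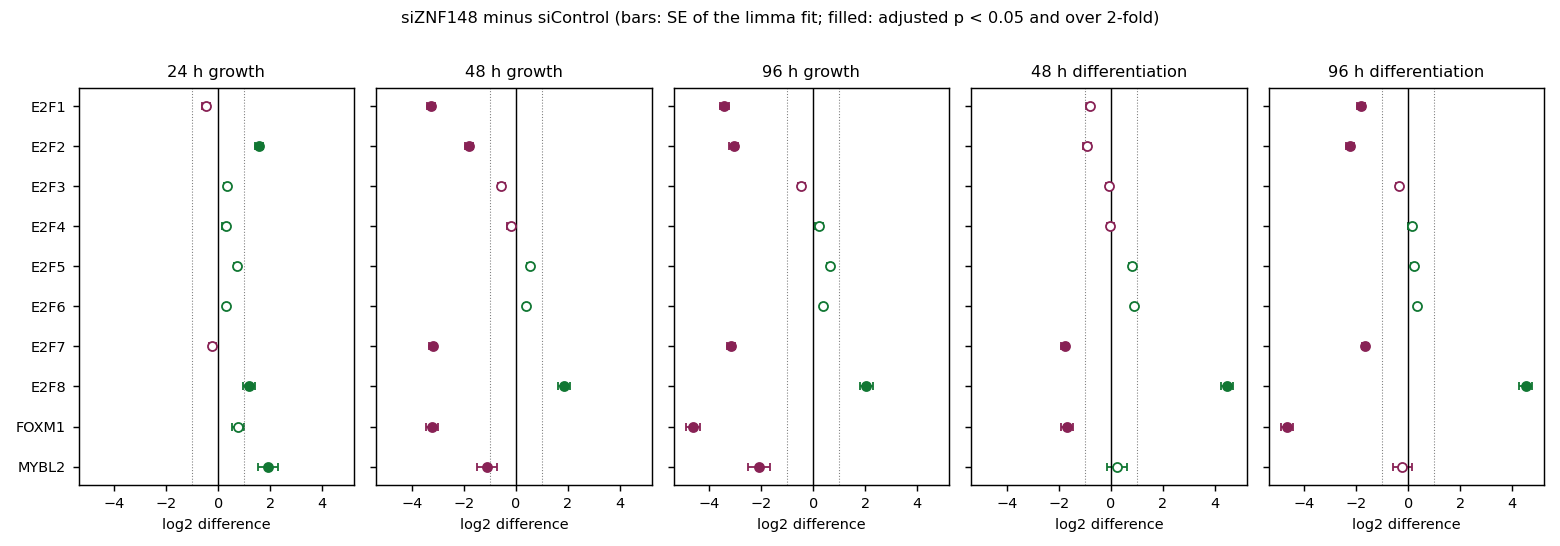
Log2 difference between siZNF148 and siControl (x axis, with SE of the limma fit) for each member in the 5 conditions, green above 0 and purple below, filled where the adjusted p was under 0.05 and the change over 2-fold. E2F2 and MYBL2 are above 0 at 24 h and below 0 at 48 and 96 h in growth media, and E2F8 is above 0 throughout, from 1.18 at 24 h to 4.51 at 96 h in differentiation media.

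The change of the knockdown effect between 24 h and later was itself tested. In growth media the effects on E2F1, E2F2, E2F7, FOXM1 and MYBL2 were lower at 48 h than at 24 h, with differences between the effects of -2.79, -3.38, -2.98, -3.98 and -3.01, where 10.3% of all genes had a lower effect. The same 5 were lower at 96 h than at 24 h (11.1% of all genes), and E2F2 and FOXM1 were lower at 96 h than at 48 h (1.89% of all genes). For E2F2 and MYBL2 this was a turn from a rise to a fall, each past the threshold on its own. The 24 h cultures were subconfluent and the later ones confluent, so that time and confluence cannot be told apart in the differences against 24 h. The effect on E2F8 did not pass at 48 h (difference 0.69, adjusted p = 0.128) or at 96 h (0.86, adjusted p = 0.0648) against 24 h, but without the array that stood apart the former was 1.03 (adjusted p = 0.00581). The differences for the other 5 members kept their calls without that array. Between media, E2F8 rose more in differentiation than in growth media, by 2.59 ± 0.335 (adjusted p = 2.64e-06) at 48 h and by 2.46 ± 0.356 (adjusted p = 2.41e-05) at 96 h, where 8.07% and 5.5% of all genes had a higher effect. Without the array that stood apart the difference at 48 h was 2.25, and that of E2F2 became 1.07 (adjusted p = 0.000258), which is past 2-fold. As the hours in the 2 media may have different starts, media and time since transfection cannot be told apart in these differences.

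Second probes bear on how far these values depend on the probe, but only 3 members had more than 1 (E2F3, E2F6 and E2F7). The values of all other members, E2F8 among them, rest on 1 probe each and could not be checked this way. E2F7 has a dimmer second probe, which was at least 5.39-fold lower at 48 h in growth media, where no siZNF148 value was well above background. It fell by 3.88 at 96 h in growth media and fell by 1.57 at 48 h in differentiation media, where only 1 of 3 siZNF148 arrays measured it above background in each case. At 96 h in differentiation media none did (means of 4.41 and 2.41), and no fold is given. The second probe of E2F3 passed the test in none of the 5 knockdown comparisons (adjusted p from 0.253 to 0.992), and in siZNF148 replicate 2 at 96 h in differentiation media it gave 9.26 against 5.88 and 5.26 in the other two replicates.

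E2F8 was also compared with its neighbours in the gene order (GRCh38.p14), since it rose where most members fell. CSRP3, a muscle LIM protein gene, lies beside E2F8 on one side and NAV2 on the other. CSRP3 was not well above background on any 24 h array, at a mean of 2.16 with siControl and 2.17 with siZNF148, while E2F8 itself rose by 1.18 ± 0.237 (adjusted p = 0.000724) there, from 6.81, 6.43 and 6.83 to 7.94, 7.92 and 7.75. At 48 and 96 h in growth media CSRP3 rose by 7.15 and 9.09 (at 48 h by 9.87 without the siControl array that stood apart), and in differentiation media by 9.89 and 7.75. The siControl array that stood apart at 48 h had the highest CSRP3 (12.22) and the highest E2F8 (7.58) of its group. NAV2 rose by 1.35 at 48 h in differentiation media and fell by 0.44 at 24 h. Both neighbours were chosen for their position, and their part in the level of E2F8 was not tested.

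The muscle markers moved with the knockdown as well. Their median level by array ran from 4.34 to 4.89 in both groups at 24 h, and none of the 5 passed the test there. At later times it ran from 7.0 to 16.03 in siControl and from 17.27 to 17.93 in siZNF148. With siZNF148 all 5 rose more than 2-fold at 48 h in both media, as they did at 96 h in growth media. At 96 h in differentiation media the array medians ran from 14.10 to 14.49 in siControl and 1 of 5 (TNNT3) passed, in a fit whose shared spread includes the array that stood apart. Whether the share of differentiated cells accounts for the levels of the members was not tested.

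**Figure D3:**
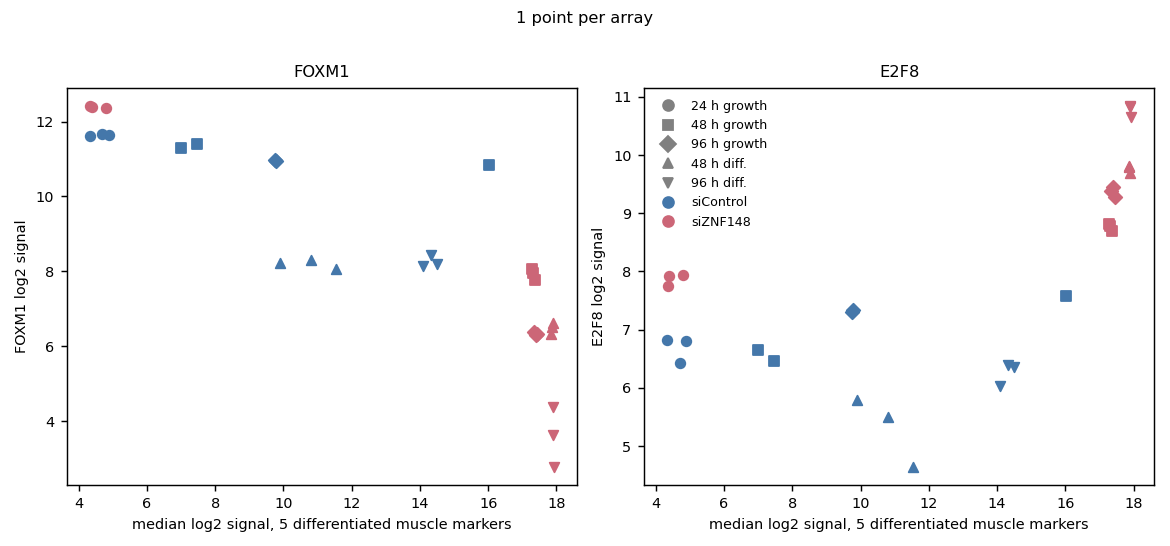
Log2 signal of FOXM1 (left) and E2F8 (right) on each array against the median log2 signal of 5 differentiated muscle markers (x axis), with siControl in blue, siZNF148 in red and a symbol for each time and media. At 24 h the muscle markers lie between 4.34 and 4.89 in both groups while E2F8 is higher with siZNF148. The siControl array at 16.03 has FOXM1 at 10.83 and E2F8 at 7.58.

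In control cells 6 members were lower in differentiation than in growth media, a difference in which media and time since transfection cannot be told apart. They fell more than 2-fold at 48 h and again at 96 h (E2F1, E2F2, E2F7, E2F8, FOXM1 and MYBL2), where 8.17% and 8.27% of all genes fell. None rose more than 2-fold, where 7.7% and 6.79% of all genes did. At 48 h E2F1 went from 8.99, 9.50 and 9.51 in growth media to 5.83, 5.72 and 5.33 in differentiation media, and fell by 3.71 ± 0.139 (adjusted p = 7.78e-15). FOXM1 fell by 2.98. MYBL2 fell by 1.94 (adjusted p = 0.000229), but its siControl values in differentiation media were 7.49, 5.22 and 5.22, and the call was lost with only the arrays of the comparison (adjusted p = 0.0952) and with the methods' t-test (adjusted p = 0.175). E2F8 fell by 1.59 ± 0.237 (adjusted p = 1.04e-05), from 7.58, 6.46 and 6.65 to 4.65, 5.50 and 5.78. The arrays of the 2 media did not overlap for either E2F1 or E2F8, although with the methods' t-test E2F8 had an adjusted p of 0.101. At 96 h the differences were -2.50 for E2F1, -2.71 for FOXM1, -2.52 for MYBL2, -1.96 for E2F2, -1.94 for E2F7 and -1.06 for E2F8 (adjusted p = 0.00317), which was under 2-fold without siControl replicate 1 in differentiation media (-0.95) and with 75th percentile scaling (-0.97). Without the array that stood apart, the same 6 members fell at 48 h, and E2F8 fell by 1.25 (adjusted p = 5.17e-05). The muscle markers depended on that array: none of 5 passed between media at 48 h with it (median difference 1.15) and all 5 rose without it (median 3.27).

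With siZNF148 fewer members differed between media. At 48 h E2F1 and FOXM1 fell more than 2-fold (2.84% of all genes fell) and E2F8 rose by 1.00 (adjusted p = 0.0057), just past 2-fold, where 1.12% of all genes rose. Leaving out any of 3 arrays brought this rise to between 0.97 and 0.99, namely siZNF148 replicate 2 or 3 in differentiation media or replicate 3 in growth media. At 96 h E2F2 fell by 1.14, FOXM1 was at least 3.45-fold lower (adjusted p = 2.53e-08), and E2F8 rose by 1.40 ± 0.237 (adjusted p = 0.000149), where 4.96% of all genes fell and 1.44% rose. With normexp background correction the 3 calls in siZNF148 cells at 48 h became 0 and the 3 at 96 h became 1. E2F8 fell from growth to differentiation media in control cells and rose in knockdown cells. The contrast of the E2F8 changes is the media difference of the knockdown effect given above.

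**Figure D4:**
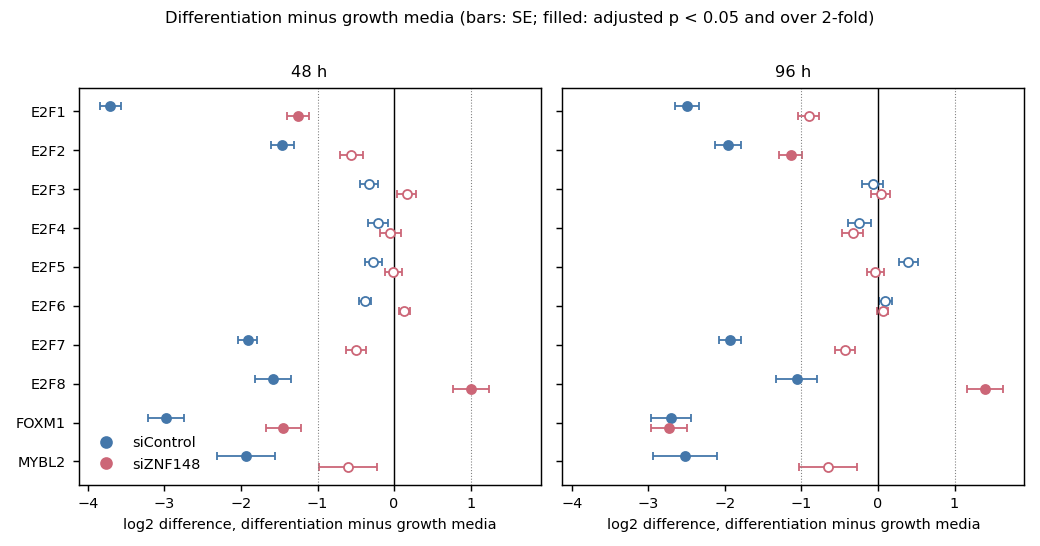
Log2 difference between differentiation and growth media (x axis, with SE of the limma fit) for each member at 48 h and 96 h, in siControl (blue) and siZNF148 (red), filled where the adjusted p was under 0.05 and the change over 2-fold. E2F8 lies at -1.59 and -1.06 in siControl and at 1.00 and 1.40 in siZNF148, and the other filled points all lie below 0.

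The order of the 10 groups shows which levels stand apart. Without the array that stood apart, siControl at 48 h in growth media moved by 1 place for 4 members (E2F1, E2F3, E2F7 and E2F8). For E2F1 the highest levels were those of siControl in growth media, with means of 9.88, 9.68 and 9.33 at 24, 96 and 48 h. The level of siZNF148 at 24 h (9.41) lay among them. No neighbours in this set passed the test, although siControl and siZNF148 at 24 h, which were not neighbours, did differ. The next level, siControl at 96 h in differentiation media (7.18), was 2.15 lower (adjusted p = 6.02e-11), and siZNF148 at 48 h in differentiation media was lowest (4.82). E2F7 had the same upper set, from 12.21 to 11.56, followed by siControl in differentiation media (9.78 and 9.64) and then all siZNF148 groups after 24 h (8.54 to 7.86). FOXM1 ran from 12.38 in siZNF148 at 24 h to 3.61 in siZNF148 at 96 h in differentiation media. The siControl groups in differentiation media (8.26 and 8.20) and siZNF148 at 48 h in growth media (7.94) did not differ as neighbours. For E2F8 all 5 siZNF148 groups came first, from 10.77 at 96 h in differentiation media to 7.87 at 24 h, and the 5 siControl groups followed, from 7.32 to 5.31, although siZNF148 at 24 h and siControl at 96 h in growth media did not differ (adjusted p = 0.107). E2F6 also had its 5 siZNF148 groups on top, within a narrow range from 12.21 to 11.84, and so did E2F5, from 8.33 to 8.0, but in both genes the lowest of these did not differ from siControl at 96 h in differentiation media past the test. E2F4 was highest in both 24 h groups (9.95 to 10.35 by array), 0.91 above the next group (adjusted p = 5.47e-06). As the 24 h arrays had their own slide and scan day, time, confluence, slide and scan cannot be told apart in this difference. The other 8 groups of E2F4 lay between 9.09 and 8.63 with no neighbours that differed. No knockdown or media comparison passed the test for E2F4. E2F3 stayed between 11.37 and 10.23.

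Over the 10 group means several members varied with E2F1 and others with E2F8. E2F1 had Pearson correlations of 0.96 with E2F7, 0.90 with FOXM1 and 0.83 with MYBL2, and E2F2 had 0.97 with FOXM1. E2F8 had 0.92 with E2F6 and 0.69 with E2F5, and -0.65 with FOXM1 and -0.63 with E2F7. These are descriptions over 10 points that share the same siRNA contrast, and the 24 h points come from a slide that no other point shares. Among 16225 genes, the 5 most like E2F1 were CKLF (0.99), MYBL1, HAUS8, TUBGCP5 and FBXO43. Those most like FOXM1 were CCNB2 (0.992), PPIA, NDC80, PSRC1 and HPS3, and those most like MYBL2 were RCC1 (0.981), RFC2, SUV39H2, RNF168 and LIFR. For E2F8, looked up after its values were seen, they were WBP4 (0.975), H2BC4, ILRUN, INPP5F and LINC01128.

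The genes that E2F and FOXM1 are known to control were followed in lists of G1/S genes (38 of 39 listed were tested; POLA2 had no named probe) and G2/M genes (39 of 40; PLK1 had none). At 24 h with siZNF148, 8 of 38 G1/S genes rose more than 2-fold (2.44% of all genes) and none fell, with a median of 0.77 over the list against -0.00094 over all genes, and 32 of 38 rose at any size of change (15.4% of all genes). CDC25A, a phosphatase that activates CDK2, rose by 1.55 (adjusted p = 6.95e-05) and CDC6, which loads the replicative helicase, by 1.42 (adjusted p = 0.00702). Among the G2/M genes 1 rose more than 2-fold, CCNA2 (cyclin A2) by 1.05 (adjusted p = 4.96e-05), with a list median of 0.41. At 48 h in growth media 32 of 38 G1/S genes fell (median -2.09) and 38 of 39 G2/M genes fell (median -3.52), where 12.2% of all genes fell and their median was -0.045. MCM10, a replication initiation factor, was at least 13.1-fold lower (adjusted p = 7.58e-12), and KIF14, a mitotic kinesin, fell by 4.55 (adjusted p = 4.09e-13). Without the array that stood apart these counts were 33 and 38. At 96 h in growth media 33 and 38 fell (12.4% of all genes), with medians of -2.40 and -4.84.

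In differentiation media at 48 h both lists held rises and falls past 2-fold, in shares close to those of all genes (15% rose and 17.2% fell). Of the G1/S genes 5 rose and 8 fell (median -0.42), and of the G2/M genes 4 rose and 7 fell (median -0.10), against a median of -0.049 over all genes. At any size of change 7 of 38 G1/S genes rose and 23 fell, and of 39 G2/M genes 13 rose and 11 fell. Over all 18432 genes 5531 rose and 6365 fell, so that the G1/S list held a larger share of falls. UHRF1, which couples DNA methylation to replication, rose by 3.66 (adjusted p = 4.56e-15) and GINS2, a helicase subunit, by 1.81, while MCM7, of the same helicase, fell by 2.58 (adjusted p = 1.27e-15) and DUT fell by 1.72. In the G2/M list KIF23 rose by 1.71 and ANLN by 2.49, both needed for cytokinesis, while CDC20 fell by 1.48 and PBK fell by 1.43. At 96 h 20 of 38 G1/S genes and 34 of 39 G2/M genes fell (12.8% of all genes), with list medians of -1.06 and -3.03. With the genes that were below background in a group set to their bounds, these last medians were -1.0 and -2.59. In siControl cells 31 of 38 G1/S genes and 38 of 39 G2/M genes were lower in differentiation than in growth media at 48 h (8.17% of all genes), with medians of -1.90 and -4.82.

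**Figure D5:**
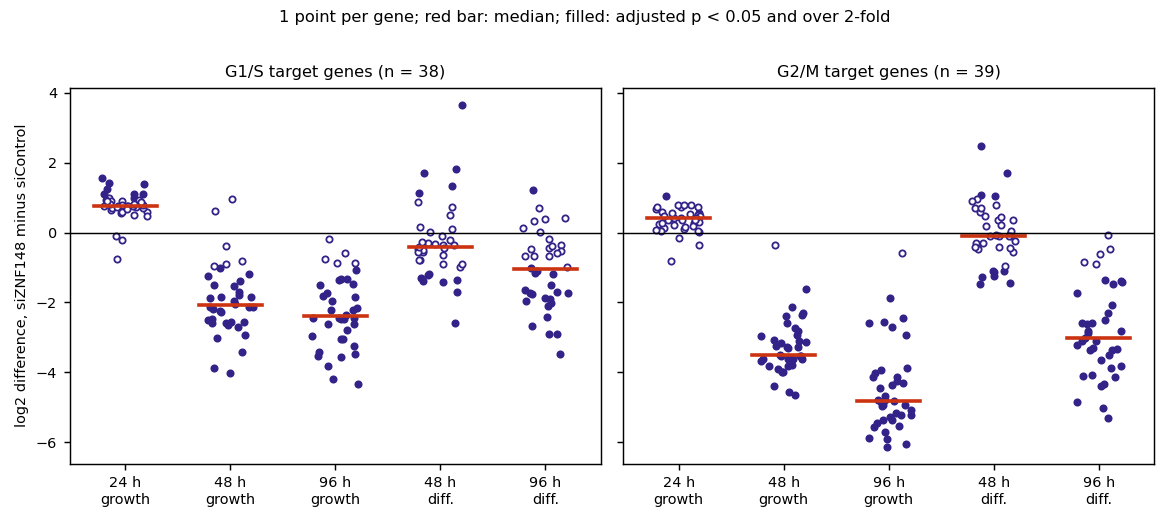
Log2 difference between siZNF148 and siControl (y axis) for each of 38 G1/S and 39 G2/M genes in the 5 conditions (x axis; diff., differentiation media), filled where the adjusted p was under 0.05 and the change over 2-fold, with the list median in red. The G1/S median lies at 0.77 at 24 h and in growth media at -2.09 (48 h) and -2.40 (96 h). In differentiation media it lies at -0.42 (48 h) and -1.06 (96 h).

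Partners and regulators of the members were followed in shorter lists. Of 5 dimer partners and pocket proteins, TFDP1 and RBL1 (p107) fell in growth media, with differences of -1.40 and -2.48 at 48 h and of -1.48 and -2.76 at 96 h. RB1 passed 2-fold in no knockdown comparison, with differences from -0.20 to 0.96, and RBL2 (p130) fell by 1.54 at 48 h in differentiation media. TFDP2 rose by 1.07 at 96 h in differentiation media. Of the 5 MuvB core genes, LIN9 and LIN52 fell at 48 h in growth media (-1.16 and -1.17) and LIN54 at 96 h (-1.13), and none passed 2-fold in the other 3 conditions. Both paralogs of MYBL2 fell at 48 h in growth media, where MYBL1 fell by 3.20 (adjusted p = 1.15e-13) and MYB was at least 5.11-fold lower (adjusted p = 7.86e-09). At 24 h, where MYBL2 rose by 1.91, MYBL1 fell by 0.73 and MYB differed by -0.69 without passing the test. Of the 6 genes of the E2F6 complex only MAX passed 2-fold in a knockdown comparison, with differences of -1.12 and -1.10 at 48 and 96 h in differentiation media.

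Among 13 cyclin D, kinase and CDK inhibitor genes, CDKN1C (p57) rose by 3.35, 4.18 and 3.15 at 24, 48 and 96 h in growth media (adjusted p = 0.000463, 1.16e-05 and 0.000992), and by 5.58 at 48 h without the array that stood apart. In differentiation media CDKN1C differed by 0.18 and -1.13 without passing the test, and the effects there were lower than in growth media (differences of -4.01 and -4.28, adjusted p = 0.00146 and 0.00219). CDKN1A (p21) rose by 1.85 at 96 h in growth media and by 1.64 at 96 h in differentiation media. The inhibitor CDKN2C fell by 1.60 at 96 h in growth media (adjusted p = 6.24e-12). CDKN2D rose by 1.80 at 48 h in differentiation media (adjusted p = 3.47e-14) and fell at 48 h in growth media (-0.71, under 2-fold). Of the 13 genes, 2 rose and 6 fell at 96 h in growth media (12.3% and 12.4% of all genes). At 48 h in differentiation media 3 rose and 4 fell (15% and 17.2% of all genes). CDK2, the kinase of S phase, fell in growth media (-2.67 at 48 h and -2.53 at 96 h). CDK4, whose probe may also read the added gene of this line, was lower at 48 and 96 h in growth media (-1.0 and -1.04) and in differentiation media (-1.64 and -1.61). CDK6 rose by 1.89 and 1.80 at 24 and 48 h in growth media and by 1.42 at 48 h in differentiation media. In differentiation media CCND2 fell at 48 and 96 h (-1.66 and -2.14), as did CCND1 (-1.31 and -2.01).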

How the data were processed

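RNA of LHCN-M2 cells was hybridized to 29 one-colour Agilent arrays of 10 groups, taken from the sample labels. The authors deposited scanner intensities (Agilent Feature Extraction, version 10.7.3.1 per the file headers) and a value table of log2 values, which were quantile-normalized by the authors. Each of its 29 columns matched its own array best (r of at least 0.9951). The log2 values were used, and the deposited intensities gave the background marks (no probe was saturated) and the alternatives. Quantile normalization sets all arrays to 1 distribution, so that a change shared by most genes is not seen.

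RefSeq accessions named 31104 probes of 22439 genes, of which 18432 had a tested probe, and a gene was given by its brightest tested probe. Gene names and order come from GRCh38.p14. The headers of 14 arrays name hg19 and those of 15 name no build. The 38839 probes that the scanner software marked as above background on 2 or more arrays were fitted with limma 3.58.1 (R 4.3.3, two-sided tests), and the fit was tested on simulated data.

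Named were all members, ZNF148, all genes of lists with up to 6 genes that passed a threshold, the 2 largest rises and falls of longer lists with some further members of these lists chosen after their values were seen, and the 5 genes most like E2F1, FOXM1 and MYBL2. A result on a G1/S gene is not reported here. Members and lists were chosen with earlier results of these data known. The alternatives were other scalings and background corrections, filters, blocks, tests and arrays left out. Lists, differences of effects, correlations and levels without the array that stood apart were added after the data were seen.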

Additional observations from a re-analysis of the deposited data

Results flagged for a closer look

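The effect of siZNF148 (siZNF148 minus siControl, log2) differed between conditions past the threshold in 20 cases, each tested as a difference of differences in the limma fit. In growth media, 48 h minus 24 h, it was -2.79 for E2F1, -3.38 for E2F2, -2.98 for E2F7, -3.98 for FOXM1 and -3.01 for MYBL2. At 96 h minus 24 h it was -2.95 for E2F1, -4.63 for E2F2, -2.96 for E2F7, -5.38 for FOXM1 and -4.01 for MYBL2. In these differences against 24 h, time and confluence cannot be told apart. At 96 h minus 48 h it was -1.26 for E2F2 and -1.39 for FOXM1, where 1.89% of all genes had a lower effect.

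In differentiation minus growth media at 48 h the difference was 2.45 for E2F1, 1.41 for E2F7, 2.59 for E2F8 and 1.53 for FOXM1. At 96 h it was 1.59 for E2F1, 1.5 for E2F7, 2.46 for E2F8 and 1.88 for MYBL2. The falls of E2F1 and E2F7 were smaller in differentiation media at both times, that of FOXM1 at 48 h and that of MYBL2 at 96 h, and the rise of E2F8 was larger at both. The MYBL2 difference at 96 h had an adjusted p of 0.0184 and lost its call when either siControl array at 96 h in growth media was left out (adjusted p = 0.0582 and 0.0525), which leaves 1 array that is assumed to vary like the other groups.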

How the results depend on the processing

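The knockdown counts of members kept within 1.5 times their value under every alternative that was run. With normexp background correction, the members past the threshold between media in siZNF148 cells went from 3 to 0 at 48 h and from 3 to 1 at 96 h, and the members whose effect differed between 96 and 48 h in growth media from 2 to 1. The same correction brought E2F8 at 24 h to 0.86, MYBL2 at 48 h in growth media to -0.77, E2F1 at 96 h in differentiation media to -0.95 and the fall of E2F8 in siControl cells to -0.89 at 48 h and -0.63 at 96 h, all under 2-fold. The media falls of MYBL2 and E2F8 in siControl cells, and the media rise of E2F8 in siZNF148 cells, were lost in the settings given beside them. E2F6 at 48 h in differentiation media passed 2-fold with the mean of its probes (1.02) and with 75th percentile scaling (1.11). Sign changes were seen only for values that had not passed 2-fold. E2F3 at 48 h in differentiation media was 0.042 with the mean of its probes and 0.033 with 75th percentile scaling, at 96 h in differentiation media 0.28 with the mean of its probes, and between media in siControl at 96 h 0.037 with normexp correction and 0.073 with slide as a fixed block. E2F6 between media in siControl at 96 h was -0.043 with 75th percentile scaling. With single arrays left out, E2F4 at 48 h in differentiation media ran from -0.12 to 0.15, MYBL2 there from -0.15 to 0.99, and E2F3 between media in siControl at 96 h from -0.17 to 0.0079. The cause was not tested.

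The correlations of same-numbered deviations ran from -0.16 to 0.12, so that no pairing of arrays by replicate number was seen. Groups of at most 3 arrays are too small for this to exclude a pairing. The paper describes its t-test as one between paired samples. The replicate numbers were those of the sample titles. For siZNF148 at 48 h in growth media the sample descriptions number the replicates differently. The fit with the replicate number as a block called 3, 6, 6, 3 and 5 members in the 5 knockdown comparisons, as without it. Within slides, called members kept their sign in all of 46 values. The 3 values at 24 h could not differ from the main result, as all arrays of that time shared 1 slide. The 6 values at 96 h in growth media rest on 1 slide with 1 siZNF148 array. The number of arrays limits the precision, and signals near background compress differences.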
